A study of Arabidopsis thaliana with 11 samples.

Results

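Root tip transcriptomes of the Arabidopsis thaliana mutants crn-3 and clv2-gabi were set against each other gene by gene, using the mean level of each gene in each mutant. The crn-3 group held 2 libraries (genotype given as coryne-3) and the clv2-gabi group 3 (clavata2-gabi), which is 5 of the 11 libraries of the series. Wild-type Col-0, with 3 libraries, served to put both mutants on a single scale, and its level is given last beside each gene. All of these plants had the Col-0 background, and grew upright on agar medium with sucrose in constant light, to an age that the labels do not state. Each mutant is a single allele of a single gene, and the labels do not say whether the libraries of a group came from separate cultures. The comparison covered 15861 of 28495 genes, namely those whose crn-3 and clv2-gabi means averaged at least 50 normalised counts. The other 12634 genes were left out of the counts below.

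CRN (CORYNE) and CLV2 (CLAVATA2) are known from the shoot and root meristems as partners in the perception of CLE peptides, small secreted signals that limit the size of the stem cell pool. CLV2 is a receptor-like protein with leucine-rich repeats outside the cell and no kinase domain inside it. CRN is a short membrane protein with a kinase-like domain, and the partners are known to need each other to reach the plasma membrane. The comparison asks, gene by gene, where crn-3 root tips differ from clv2-gabi root tips.

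The values are the authors' group means of normalised read counts, rounded to whole numbers, so no value per library, no standard deviation and no test of crn-3 against clv2-gabi could be had for any gene, and a mean may rest on 1 library. Depth per library is unknown. The crn-3 means were multiplied by 1.08, the ratio of the Col-0 sums in the clv2-gabi and crn-3 tables, and the ratio of the Col-0 means lay between 1.077 and 1.079 for each of the 5260 genes with a Col-0 mean of at least 1000. After scaling, the means summed to 28532041 in crn-3, 28025463 in clv2-gabi and 28800590 in Col-0. Root tip markers were present, some at like levels in both mutants and others not. PLT1, a regulator of root stem cells, had 1077 counts in crn-3, 1080 in clv2-gabi and 894 in Col-0. SMB, a root cap regulator, had 778, 778 and 650 counts in the same order, and SCR, of the meristem, 2275, 2210 and 2170. The root cap gene RCPG had 1328.5, 1339 and 768 counts, again in that order. CASP1, of the endodermis, had 45.3, 36 and 60, and EXPA7, of root hairs, 37.7, 22 and 68. The 4 green tissue markers were at or near 0 except LHCA1: LHCB1.1 had 1.1 counts in crn-3, 2 in clv2-gabi and 2 in Col-0, LHCB2.1 had 0, 6 and 1 in that order, RBCS1A 0, 2 and 0, and LHCA1 32.4, 44 and 34. The flower marker AP1 was listed at 0 in all 3 groups, and AP3 had 18.3 counts in crn-3, 13 in clv2-gabi and 14 in Col-0. Of the 3 seed markers, CRU3 had 16.2 counts in crn-3, 2 in clv2-gabi and 0 in Col-0, CRA1 had 0, 1 and 0, and OLEO1 0, 0 and 1.

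The transcriptomes of crn-3 and clv2-gabi root tips differed little. The log2 ratio of crn-3 over clv2-gabi, taken here and throughout as log2 of (crn-3 mean + 1) over (clv2-gabi mean + 1), had a median of -0.0041, and 48.5% of the genes lay above 0. In all, 14767 genes (93.1%) lay within 1.2-fold. At least 2-fold higher in crn-3 were 10 of the 15861 genes (0.063%), and at least 2-fold lower were 7 (0.0441%). At 1.5-fold the counts were 62 higher (0.391%) and 45 lower (0.284%), or 107 in either direction (0.675%). The scatter depended on the level: the central 95% of genes averaging from 50 to below 200 counts lay between -0.47 and 0.47 (3246 genes), and that of genes averaging 1000 or more between -0.16 and 0.19 (5588 genes). The median differed slightly by level too, at -0.04 and 0.02 in that order, and -0.02 for the 7027 genes between. Group medians below are set against all genes kept, not against genes of like level. Of the 17 genes past 2-fold, 9 averaged under 200 counts, where the scatter was widest.

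**Figure D1:**
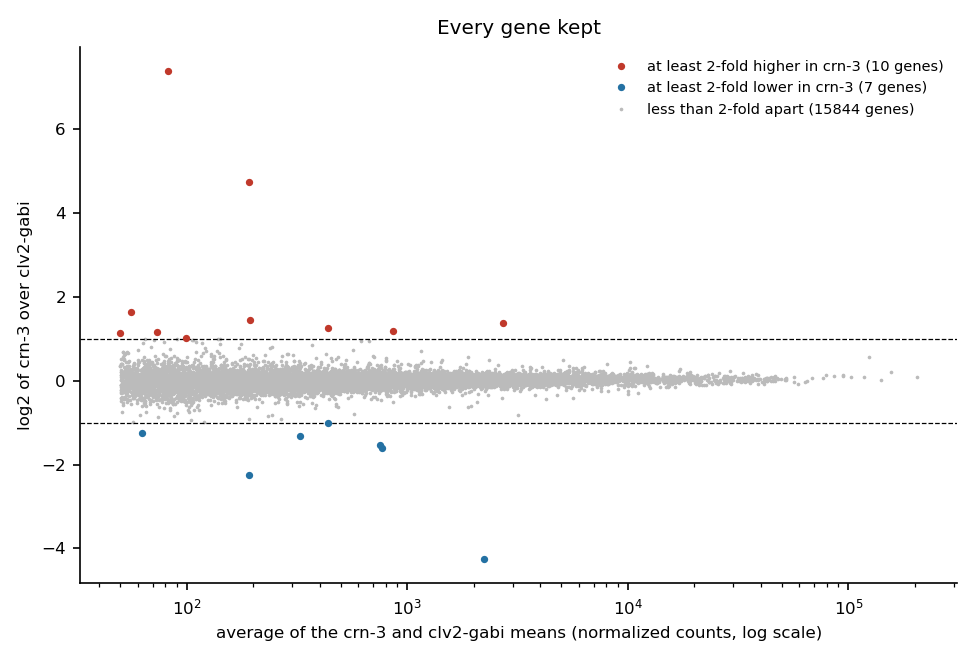
Log2 ratio of crn-3 over clv2-gabi (vertical axis) against the average of both means in normalized counts (log axis), 1 point per gene kept. The dashed lines mark 2-fold; 10 genes lie at or above the upper line and 7 at or below the lower one, among 15861.

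Among the mutated genes, CLV2 itself stood apart. Its mean was 222 counts in crn-3, against 4248 in the libraries labelled clv2-gabi and 198 in Col-0. This was the lowest log2 ratio of any gene kept, -4.25, or 19.0-fold lower in crn-3. More CLV2 reads were thus counted in the libraries labelled clv2-gabi, and the tables do not show which stretch of the gene was read. Whether an intact CLV2 transcript was present was not tested. In the authors' deposited tables CLV2 had a fold change over Col-0 of 1.12 in crn-3, with an adjusted p of 1, and of 21.44 in clv2-gabi, with an adjusted p of 0 to 3 decimals. The neighbour AT1G65370, a TRAF-like gene whose annotated start lies just before that of CLV2, on the other strand, had 389 counts in crn-3, 1123 in clv2-gabi and 321 in Col-0, a log2 ratio of -1.53. The gene that follows on the other side, PP2-A5, was listed at 0 in all 3 groups, and the next ones, ABCI13, NPQ7, ARI8 and GTB1, had log2 ratios between -0.27 and -0.04.

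CRN had 119.7 counts in crn-3, 130 in clv2-gabi and 98 in Col-0, a log2 ratio of -0.12 that lies inside the scatter of genes of its level. The CRN transcript therefore did not tell the crn-3 libraries from the others, and the tables hold no sequence that could. Its 4 nearest neighbours that were kept, RARE1, AK-LYS1, SFC and AT5G13310, had log2 ratios of -0.23, 0.02, 0.07 and -0.02. CLE40, the gene of a root CLE peptide, had 1.1 counts in crn-3, 1 in clv2-gabi and 1 in Col-0, too few for any comparison.

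**Figure D2:**
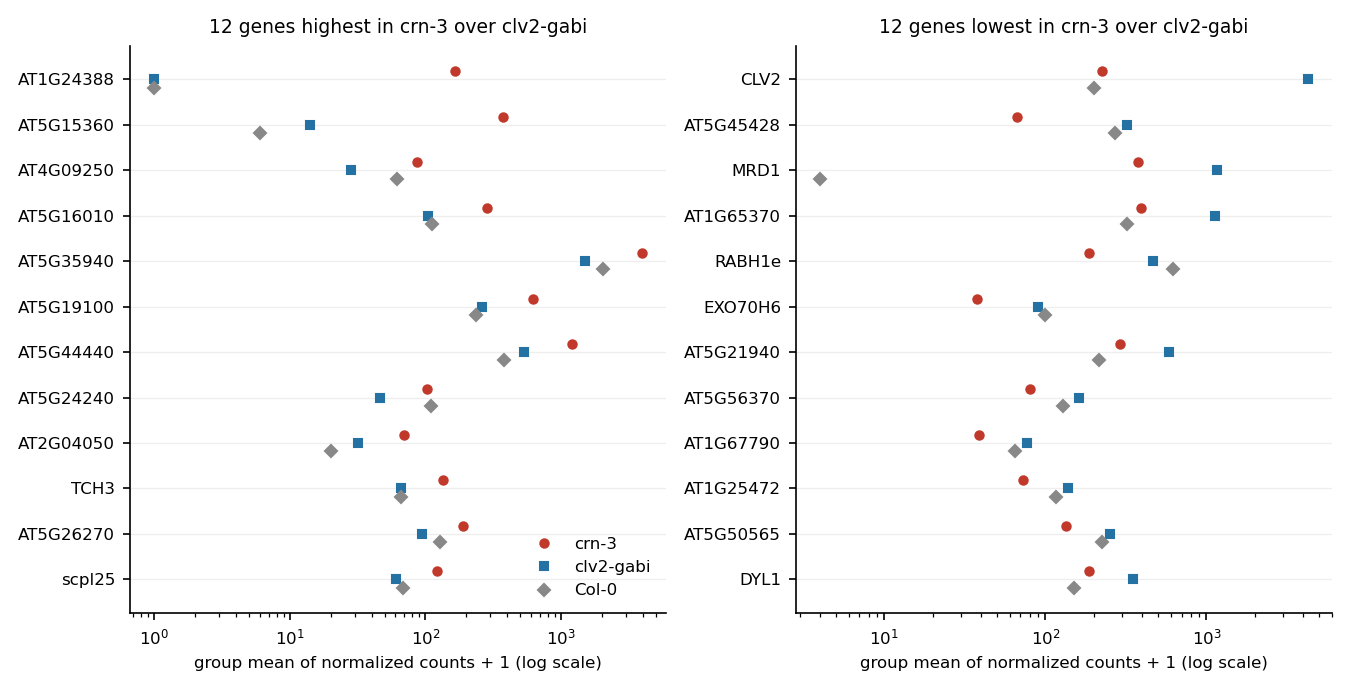
Group means of normalized counts plus 1 (log axis) for the 12 genes highest and the 12 lowest in crn-3 over clv2-gabi, with crn-3 as circles, clv2-gabi as squares and Col-0 as diamonds. AT1G24388 and AT5G15360 stand near the low end in clv2-gabi and Col-0, and CLV2 stands alone at 4248 counts in clv2-gabi.

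The largest differences above 0 came from a pair of uncharacterised genes that were near silent outside crn-3. AT1G24388 had 164 counts in crn-3 and was listed at 0 in clv2-gabi and in Col-0, so no fold is given. AT5G15360 had 371 counts in crn-3, 13 in clv2-gabi and 5 in Col-0, a log2 ratio of 4.73. AT1G24388 overlaps AT1G24390 on the opposite strand, which was listed at 0 in all 3 groups, and ENODL17, beside AT5G15360, had a log2 ratio of -0.07. Every 50-base window of the exons of both genes occurs once in the genome. The 250 bases before the annotated start of each are shown because the contrast between the mutants was largest here. They are RefSeq sequence of the build TAIR10.1, 5′ to 3′ on the gene's strand, from chr1:8648695-8648944 (minus strand) and chr5:4989183-4989432 (minus strand). Capitals mark matches to TATAAA on the gene's strand, a core of the TATA box, or to CACGTG (the G-box) or TATCCA on either strand.
AT1G24388: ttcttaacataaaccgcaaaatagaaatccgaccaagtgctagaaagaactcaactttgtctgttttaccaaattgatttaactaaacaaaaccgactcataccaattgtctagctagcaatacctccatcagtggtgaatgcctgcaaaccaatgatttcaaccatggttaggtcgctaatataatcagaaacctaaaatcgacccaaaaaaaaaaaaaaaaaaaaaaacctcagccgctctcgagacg
AT5G15360: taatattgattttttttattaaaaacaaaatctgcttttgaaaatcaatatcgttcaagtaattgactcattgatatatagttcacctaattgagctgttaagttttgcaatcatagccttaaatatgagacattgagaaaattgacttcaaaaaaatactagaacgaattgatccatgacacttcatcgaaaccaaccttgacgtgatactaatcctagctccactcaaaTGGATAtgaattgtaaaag
Neither window holds TATAAA, which 30.5% of the windows of all 15801 genes kept and placed on the 5 chromosomes hold, and AT5G15360 has 1 match to TATCCA, read on the other strand, which 13.9% of those windows hold.

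The other 8 genes at least 2-fold higher in crn-3 were all transcribed in clv2-gabi. AT5G16010, of a steroid dehydrogenase family, had 284 counts in crn-3, 103 in clv2-gabi and 110 in Col-0 (log2 ratio 1.45). AT5G19100, of an aspartyl protease family, had 619 counts in crn-3, 258 in clv2-gabi and 234 in Col-0 (1.26). AT5G35940, of the mannose-binding lectins, had 3926 counts in crn-3, 1505 in clv2-gabi and 2042 in Col-0 (1.38). In these genes the crn-3 mean stood further from Col-0 than the clv2-gabi mean did. The same held for AT5G44440, of the berberine bridge enzymes, which oxidise small molecules, with 1199 counts in crn-3, 531 in clv2-gabi and 377 in Col-0 (1.17). It held as well for AT2G04050, a MATE efflux transporter, with 69.0, 31 and 19 counts in that order (1.13), and for TCH3, a calmodulin-like gene known to respond to touch, with 133, 65 and 65 counts (1.02). AT4G09250 and AT5G24240 differed from these in that clv2-gabi stood further from Col-0. AT4G09250, with a SPRY domain, had 85.2 counts in crn-3, 27 in clv2-gabi and 61 in Col-0 (1.62), and none of its 816 exon windows of 50 bases is unique in the genome, so its value is uncertain. AT5G24240, annotated as a phosphatidylinositol 4-kinase gamma-like protein, had 101 counts in crn-3, 45 in clv2-gabi and 109 in Col-0 (1.15).

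Below 0, the genes fell into those low in crn-3 and those high in clv2-gabi. RABH1e, a small GTPase of vesicle traffic, had 184 counts in crn-3, 465 in clv2-gabi and 621 in Col-0 (log2 ratio -1.33). EXO70H6, a subunit of the exocyst that tethers secretory vesicles, had 36.7 counts in crn-3, 89 in clv2-gabi and 98 in Col-0 (-1.26). AT5G45428, which has no entry in the annotation used, had 65.8 counts in crn-3, 318 in clv2-gabi and 270 in Col-0 (-2.26). In these 3 genes the clv2-gabi mean was nearer to Col-0 than the crn-3 mean was. AT5G21940, annotated as a histidine kinase-like protein, had 289 counts in crn-3, 584 in clv2-gabi and 214 in Col-0 (-1.01), with crn-3 nearer to Col-0. MRD1 was high in both mutants, with 375 counts in crn-3, 1154 in clv2-gabi and 3 in Col-0 (-1.62). It overlaps HEI10, a gene known for meiotic crossover, on the opposite strand, and HEI10 had 616 counts in crn-3, 838 in clv2-gabi and 230 in Col-0 (-0.44). The sources used here do not say whether the counting used strand, so reads in the stretch that both genes share cannot be assigned with certainty.

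The authors' deposited tables give a test of each mutant against Col-0, and both use the same Col-0 libraries. The crn-3 test had 2 mutant libraries and the clv2-gabi test 3, so their counts of calls are not on a like footing. At an adjusted p under 0.05 the authors' deposited table of crn-3 called 43 genes higher (0.189%) and 57 lower (0.25%) of 22793, and that of clv2-gabi called 69 higher (0.3%) and 365 lower (1.59%) of 22987. Of the 10 genes at least 2-fold higher in crn-3 than in clv2-gabi, 8 were called higher in crn-3 and 2, AT4G09250 and AT5G24240, were called lower in clv2-gabi. Of the 7 at least 2-fold lower, 3 were called lower in crn-3 (AT5G45428, RABH1e and EXO70H6), 3 were called higher in clv2-gabi alone (CLV2, AT1G65370 and AT5G21940), and MRD1 was called higher in both. At 1.5-fold, 25 of the 62 higher genes and 21 of the 45 lower ones were called in neither table. A call against Col-0 in one mutant and not in the other is no test of the difference between the mutants, which was not tested.

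The CLE signalling genes other than the mutated ones were close to equal in crn-3 and clv2-gabi root tips. All 13 genes of the CLE receptors and their partners were kept, with a median log2 ratio of 0.08, 10 of them above 0 and 3 below, and none reached 1.5-fold. CLV1, the receptor kinase of the shoot meristem, had 135 counts in crn-3, 119 in clv2-gabi and 121 in Col-0 (log2 ratio 0.18). BAM3, a receptor of CLE peptides in the root phloem, had 435 counts in crn-3, 384 in clv2-gabi and 365 in Col-0 (0.18). BAM1 had 4001 counts in crn-3, 4011 in clv2-gabi and 3688 in Col-0 (0.00), and BAM2 1468, 1363 and 1334 counts in that order (0.11). CR4, the receptor kinase also known as ACR4 that acts in the distal root meristem, had 304 counts in crn-3, 310 in clv2-gabi and 274 in Col-0 (-0.03). Of 30 CLE peptide genes, 5 were kept, between -0.13 (CLE17) and 0.22 (CLE13). Root stem cell and ground tissue regulators had a median of 0.02 over 12 genes kept, from -0.36 for RGF3, the gene of a root meristem growth peptide (731 counts in crn-3, 939 in clv2-gabi and 744 in Col-0), to 0.12.

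Root hair genes stood higher in crn-3 than in clv2-gabi, and most stood below Col-0 in both mutants. Of 39 root hair genes, 17 were kept, and 16 of these lay above 0, with a median log2 ratio of 0.26 against -0.0041 over all genes kept. Counting members with an average of at least 10, 28 of 30 lay above 0, with a median of 0.29. RHS8, a root hair specific gene, had 63.6 counts in crn-3, 39 in clv2-gabi and 109 in Col-0, a log2 ratio of 0.69. It was the 1 member kept that was past 1.5-fold. LRX1, a wall protein of root hairs, had 60.4 counts in crn-3, 43 in clv2-gabi and 90 in Col-0 (0.48). SHV2 (COBL9), a COBRA-like protein of hair tip growth, had 241.5 counts in crn-3, 178 in clv2-gabi and 434 in Col-0 (0.44). RHD2, the NADPH oxidase of growing hairs, had 908 counts in crn-3, 751 in clv2-gabi and 1166 in Col-0 (0.27). In these 4 genes crn-3 stood between clv2-gabi and Col-0. RHD6 and RSL1, factors that start hair growth, lay near 0, at 0.02 and 0.08, and RHS13 was the 1 member kept below 0, at -0.33. In the authors' deposited tables all 39 root hair genes were tested, and 2 were called lower in crn-3 and 17 in clv2-gabi, where over all genes 0.25% and 1.59% were. None was called higher in either mutant. The smaller count in crn-3, the group with fewer libraries, is also that of the whole tables. The epidermal patterning genes, which choose hair or non-hair fate, had a median of -0.01 over 13 genes kept, with 6 above 0 and 7 below. In these bulk samples, fewer cells of a type and less RNA per cell cannot be told apart.

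Cell wall families, aquaporins and lipid-transfer type genes shared the direction of the root hair genes, with smaller medians. The groups are not all separate: LRX1, for example, is counted both as a root hair gene and among the extensins. XTH enzymes, which cut and rejoin xyloglucan, had a median log2 ratio of 0.16, with 11 of 14 genes kept above 0. At an average of at least 10 their median was smaller, 0.08, with 14 of 18 above 0. XTH17 had 809.8 counts in crn-3, 424 in clv2-gabi and 1349 in Col-0, a log2 ratio of 0.93. In the authors' deposited tables its fold change over Col-0 was 0.6 in crn-3 with an adjusted p of 0.01, and 0.31 in clv2-gabi with an adjusted p of 0 to 3 decimals. XTH21 (358 counts in crn-3, 258 in clv2-gabi and 531 in Col-0) and XTH18 (979, 761 and 1439 counts in that order) had log2 ratios of 0.47 and 0.36. Class III peroxidases, which oxidise wall phenolics, had a median of 0.17 with 20 of 26 above 0, and extensins and proline-rich wall proteins a median of 0.17 with 14 of 20 above 0. At an average of at least 10 the medians of these families were 0.17 (25 of 35 above 0) and 0.21 (24 of 32). Of these, the peroxidase AT1G30870 had 88.4 counts in crn-3, 50 in clv2-gabi and 157 in Col-0 (0.81), and the extensin AT3G54580 had 838 counts in crn-3, 568 in clv2-gabi and 1398 in Col-0 (0.56), with 69.9% of its exon windows unique. Arabinogalactan proteins had a median of 0.10 (26 of 35 above 0), aquaporins 0.10 (16 of 21) and lipid-transfer type genes 0.07 (20 of 26). At an average of at least 10 their medians were 0.10 (27 of 39), 0.10 (18 of 25) and 0.05 (23 of 36) in that order. The authors' deposited tables called members of all these families lower in both mutants: of the XTH enzymes 1 of 28 tested in crn-3 and 8 of 29 in clv2-gabi, of the peroxidases 4 of 56 and 11 of 59, and of the extensins 3 of 48 and 12 of 47. For the arabinogalactan proteins the counts were 5 of 50 in crn-3 and 10 of 50 in clv2-gabi, for the aquaporins 3 of 30 and 11 of 31, and for the lipid-transfer type genes 10 of 70 and 12 of 72. Called higher was 1 member of the extensin group, in clv2-gabi, and no other member of these families in either mutant. Over all genes those tables called 57 lower in crn-3 (0.25%) and 365 in clv2-gabi (1.59%), so the smaller count in crn-3 is also that of the whole tables. Expansins, which loosen walls, were nearer to 0, with a median of 0.03 and 10 of 16 above 0.

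The bases before the starts of RHS8 and XTH17 are shown as the leading members of the root hair and XTH groups, from chr1:23530990-23531239 and chr1:24256804-24257053 (both plus strand), with capitals as above.
RHS8: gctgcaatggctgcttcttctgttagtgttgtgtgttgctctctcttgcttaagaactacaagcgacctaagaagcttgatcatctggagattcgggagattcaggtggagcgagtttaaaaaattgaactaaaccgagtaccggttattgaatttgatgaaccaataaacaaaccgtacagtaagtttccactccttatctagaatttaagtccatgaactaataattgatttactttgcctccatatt
XTH17: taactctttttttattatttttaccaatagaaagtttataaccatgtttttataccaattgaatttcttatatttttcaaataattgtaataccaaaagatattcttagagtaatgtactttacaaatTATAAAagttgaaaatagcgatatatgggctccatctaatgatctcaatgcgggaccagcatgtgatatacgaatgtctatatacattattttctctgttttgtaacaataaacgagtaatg
XTH17 has 1 TATAAA on its strand and RHS8 none. In the root hair group 7 of 17 windows (41.2%) hold TATAAA and 0 of 17 hold the G-box, against 30.5% and 7.52% of the windows of all genes kept. The TATAAA share was not particular to this group. It was 11 of 23 (47.8%) for carbon starvation genes and 6 of 17 (35.3%) for photosynthesis genes, both described below. Of genes at least 1.5-fold lower in crn-3, 18 of 43 (41.9%) hold it, and 19 of 62 (30.6%) of those higher. None of these shares was tested.

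Genes of carbon starvation lay in the other direction, lower in crn-3 than in clv2-gabi. This group holds genes known to be induced by dark or sugar depletion, many through the kinase SnRK1. Of its 30 genes 23 were kept, and 20 of these lay below 0, with a median log2 ratio of -0.10. At an average of at least 10, 22 of 28 lay below 0 and 6 above, with a median of -0.10. The lowest of the genes kept was DYL1, a dormancy-associated gene, with 185.5 counts in crn-3, 350 in clv2-gabi and 149 in Col-0, a log2 ratio of -0.91. AT3G15450, a sugar-repressed gene, had 2313 counts in crn-3, 4058 in clv2-gabi and 1501 in Col-0 (-0.81). DIN10, a dark-induced raffinose synthase gene, had 1490.3 counts in crn-3, 2296 in clv2-gabi and 1235 in Col-0 (-0.62). These 3 genes were the members kept that were past 1.5-fold, and in each crn-3 stood between Col-0 and clv2-gabi. BT2, a sugar-responsive BTB protein, had 94.9 counts in crn-3, 132 in clv2-gabi and 69 in Col-0 (-0.47). The trehalose phosphate synthase genes TPS8, TPS9, TPS10 and TPS11 lay between -0.22 and -0.06, and GDH1 and GDH2, which encode glutamate dehydrogenases, at -0.07 and -0.14. Of the members kept, those above 0 were EXL2 at 0.17, SIP1 at 0.07 and DIN9 at 0.01. In the authors' deposited tables AT3G15450 was the 1 member called higher in crn-3, of 29 tested, and 8 of 30 were called higher in clv2-gabi, where over all genes 0.189% and 0.3% were.

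**Figure D3:**
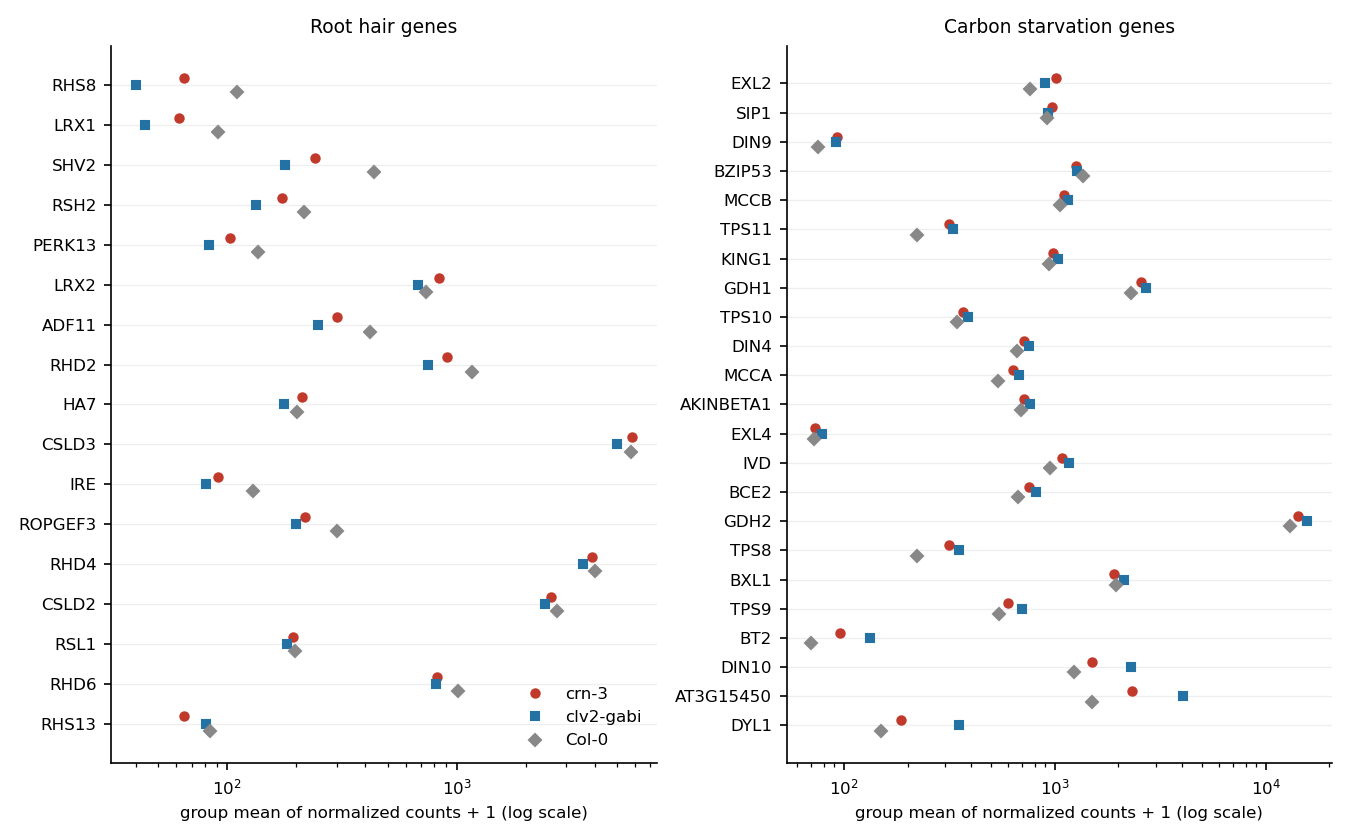
Group means of normalized counts plus 1 (log axis) of the 17 root hair genes (left) and 23 carbon starvation genes (right) kept, ordered by the log2 ratio of crn-3 over clv2-gabi, with crn-3 as circles, clv2-gabi as squares and Col-0 as diamonds. In 16 of 17 root hair genes the circle lies right of the square, and in 20 of 23 carbon starvation genes left of it.

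The windows before DYL1 and AT3G15450, the lowest members kept of the carbon starvation group, come from chr1:9935441-9935690 (minus strand) and chr3:5212734-5212983 (plus strand). TATCCA is shown because it is known in rice from amylase promoters that respond to sugar depletion.
DYL1: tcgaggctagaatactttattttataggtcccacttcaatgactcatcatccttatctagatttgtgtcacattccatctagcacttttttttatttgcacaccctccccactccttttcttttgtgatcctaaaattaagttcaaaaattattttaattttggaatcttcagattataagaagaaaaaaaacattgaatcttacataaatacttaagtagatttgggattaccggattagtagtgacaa
AT3G15450: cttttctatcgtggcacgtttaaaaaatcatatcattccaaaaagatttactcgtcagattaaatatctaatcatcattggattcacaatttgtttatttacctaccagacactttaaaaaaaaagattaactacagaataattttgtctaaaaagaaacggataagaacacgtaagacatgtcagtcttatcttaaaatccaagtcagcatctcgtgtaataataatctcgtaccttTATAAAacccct
AT3G15450 has 1 TATAAA, which starts 12 bases before the annotated start, and neither window holds TATCCA or the G-box. TATCCA was found in 4 of 23 windows of the carbon starvation group (17.4%), against 13.9% of the windows of all genes kept. It was found in 11 of 43 windows of genes at least 1.5-fold lower (25.6%) and 7 of 62 of those higher (11.3%). For photosynthesis genes the share was 5 of 17 (29.4%) and for root hair genes 2 of 17 (11.8%). These shares were not tested.

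Photosynthesis genes and MADS-box genes also lay mostly below 0. Of 69 nuclear photosynthesis genes 17 were kept, 15 of them below 0, with a median log2 ratio of -0.18, and none past 1.5-fold. At an average of at least 10, 33 of 39 lay below 0. Over all 69 genes, those not kept included, the summed mean was 3637 counts in crn-3, 4143 in clv2-gabi and 3587 in Col-0. LHCA4, a light-harvesting protein, had 257 counts in crn-3, 337 in clv2-gabi and 221 in Col-0 (-0.39), and PSBX, of photosystem II, had 237 counts in crn-3, 333 in clv2-gabi and 270 in Col-0 (-0.49). NPQ4, which protects photosystem II from excess light, was the main exception, with 169 counts in crn-3, 115 in clv2-gabi and 197 in Col-0 (0.55). Of the MADS-box genes 13 were kept, 10 of them below 0, with a median of -0.13. At an average of at least 10, 14 of 21 MADS-box genes lay below 0, with a smaller median of -0.09. SVP, a repressor of flowering, had 63.6 counts in crn-3, 104 in clv2-gabi and 37 in Col-0 (-0.70). AGL20, also called SOC1, which promotes flowering, had 58.2 counts in crn-3, 91 in clv2-gabi and 46 in Col-0 (-0.64), and the related AGL42 had 224 counts in crn-3, 297 in clv2-gabi and 195 in Col-0 (-0.40). Of 6 genes of the thalianol and marneral clusters, which make root triterpenes, 5 lay below 0, with a median of -0.16, while THAS1, thalianol synthase, had 3946 counts in crn-3, 3671 in clv2-gabi and 3638 in Col-0 (0.10).

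Berberine bridge enzymes had a median log2 ratio of 0.21, with 7 of 9 genes kept above 0, and 0.33 with 10 of 12 above 0 at an average of at least 10. Beside AT5G44440, AT4G20860 had 258 counts in crn-3, 186 in clv2-gabi and 293 in Col-0 (0.47), and AT4G20840 had 89.5 counts in crn-3, 70 in clv2-gabi and 132 in Col-0 (0.35). Low oxygen genes had a median of 0.11, with 6 of 8 above 0, led by SUS1, a sucrose synthase gene, with 259 counts in crn-3, 215 in clv2-gabi and 175 in Col-0 (0.27). Proton pumps of the plasma membrane had a median of 0.09, also with 6 of 8 above 0, and HA7 among them is also counted as a root hair gene.

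Medians of other groups lay nearer to 0. DNA replication genes had a median log2 ratio of 0.03, with 23 of 30 genes kept above 0, and mitosis genes a median of -0.03, with 20 of 28 below 0, and no member of either group reached 1.5-fold. Root cap genes had a median of -0.01 over 12 genes, xylem and secondary wall genes 0.01 over 16, phloem genes 0.04 over 11, and cytokinin genes 0.005 over 19. Groups with a median this close to 0 have no firm direction. With crn-3 scaled so that the sums of both mutants were equal, 9 of 43 groups changed the sign of their median, the largest of those medians being 0.02 in size. With an average of at least 200, 7 of 41 groups changed sign, the largest being the SAUR and GH3 genes, at 0.06 over 20 genes and -0.03 over 9, and phloem genes among them, at 0.04 over 11 and -0.09 over 5. With no filter on low means, 19 of 43 medians became 0, among them those of the berberine bridge enzymes, class III peroxidases, lipid-transfer type genes and MADS-box genes, and none took the opposite sign. The medians of the root hair and carbon starvation genes were then 0.26 over 39 genes and -0.10 over 30. Single members stood out in some of these groups. G3Pp1, a phosphate starvation gene, had 94.9 counts in crn-3, 48 in clv2-gabi and 37 in Col-0 (0.97), and GH3.1, an auxin-conjugating enzyme gene, had 183 counts in crn-3, 100 in clv2-gabi and 129 in Col-0 (0.87). NSP3, a nitrile specifier that steers glucosinolate breakdown, had 308 counts in crn-3, 178 in clv2-gabi and 449 in Col-0 (0.79).

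**Figure D4:**
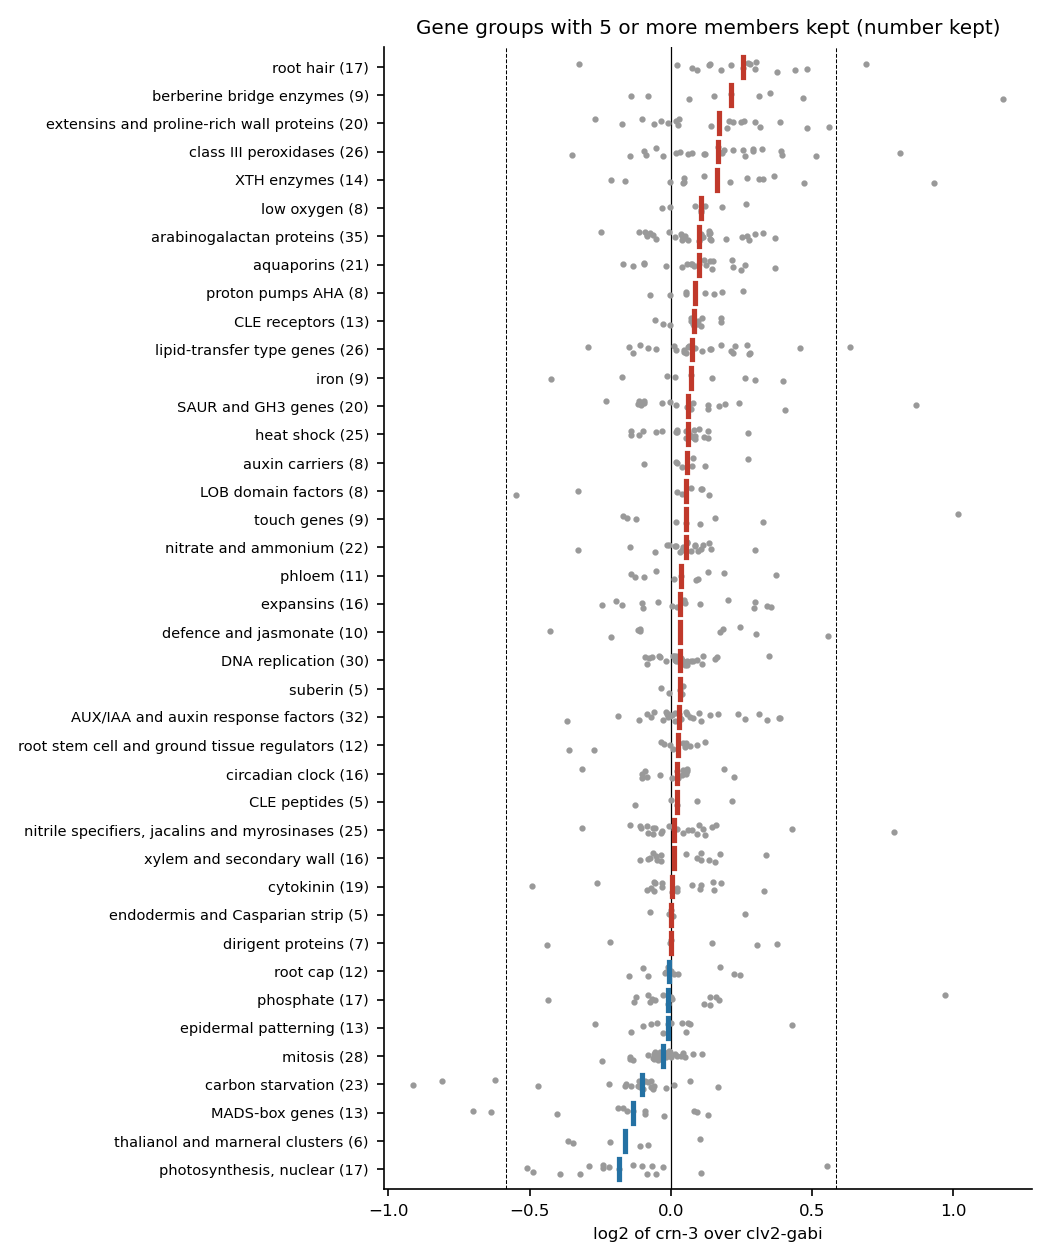
Log2 ratio of crn-3 over clv2-gabi for the members kept (grey points) of each gene group with 5 or more of them, ordered by the group median (thick bar, red above 0 and blue below). The dashed lines mark 1.5-fold; root hair genes head the groups with a median of 0.26 and photosynthesis genes close them with -0.18.

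Genes at least 1.5-fold apart were also counted by their position in TAIR10.1, in windows chosen after the values were seen and given as counts only. On the 5 chromosomes 105 of 15801 genes kept (0.665%) were that far apart. Within 3 Mb of CRN on chromosome 5 they were 17 of 1140 genes (1.49%), against 88 of 14661 (0.6%) elsewhere. Within 1 Mb of CRN they were 6 of 388 (1.55%), and all 6 were higher in crn-3 than in clv2-gabi. They were AT5G13210 (140.2 counts in crn-3, 71 in clv2-gabi and 70 in Col-0), LEP, LRP1, MIR398c, AT5G15360 and AT5G16010. The nearest, AT5G13210, lies 0.039 Mb from CRN. LEP had 153.1 counts in crn-3, 82 in clv2-gabi and 167 in Col-0, and LRP1 105.7, 62 and 90 in that order. In LEP and LRP1 the clv2-gabi mean stood further from Col-0 than the crn-3 mean did. MIR398c had 75.5 counts in crn-3, 45 in clv2-gabi and 43 in Col-0. RABH1e lies 1.03 Mb from CRN. Within 1 Mb of CLV2 on chromosome 1 they were 5 of 255 genes (1.96%): CLV2, AT1G65370, XTH17 at 0.03 Mb, DAA1 at 0.489 Mb and RHS8 at 0.755 Mb. Within 3 Mb of CLV2 they were 6 of 793 (0.757%). Chromosome 2, which holds neither mutated gene, had 27 of 2378 (1.14%).

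**Figure D5:**
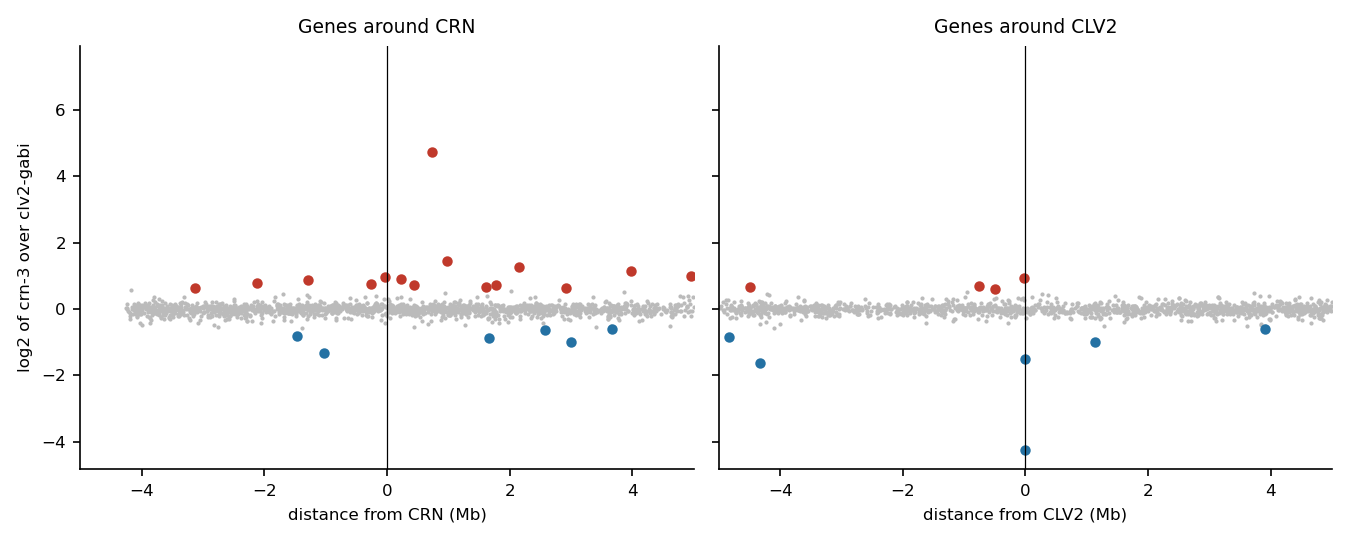
Log2 ratio of crn-3 over clv2-gabi (vertical axis) of the genes kept against their distance in Mb from CRN (left) and CLV2 (right), 1 point per gene, out to 5 Mb. Coloured points are at least 1.5-fold apart, red above 0 and blue below; the highest point left is AT5G15360 and the lowest point right is CLV2.

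Some genes lay close to the thresholds. Just inside the average of 50 were AT2G04050 and AT4G09250, the second with an average of 56.1, and just outside were AT3G15356 (44.4), with 25.9 counts in crn-3 and 63 in clv2-gabi, and AT3G44870 (42.2), with 18.3 counts in crn-3 and 66 in clv2-gabi. AT5G39770, left out for its average of 28.5, had 56.1 counts in crn-3, 1 in clv2-gabi and 2 in Col-0. At the 2-fold limit TCH3 (2.03-fold higher) was counted and AT5G26270 (1.997-fold, with 189 counts in crn-3, 94 in clv2-gabi and 127 in Col-0) was not. On the other side AT5G21940 (2.02-fold lower) was counted and AT5G56370 (1.993-fold lower, with 79.8 counts in crn-3, 160 in clv2-gabi and 127 in Col-0) was not. AT5G50565, also among the 12 lowest, had 133 counts in crn-3, 252 in clv2-gabi and 223 in Col-0, but none of its exon windows of 50 bases is unique in the genome. AT1G25472, another of the 12 lowest, has no entry in the annotation used. It had 71.2 counts in crn-3, 137 in clv2-gabi and 116 in Col-0 (log2 ratio -0.94).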

How the data were processed

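The data were 2 of the series' 3 tables, one for crn-3 and one for clv2-gabi, each with a Col-0 column and 28495 genes. The submitters' processing notes name CASAVA 1.8.2, DESeq without a version and TAIR10. The sources used here do not give the aligner, counter, annotation or strand setting. Per the file headers and values, the group columns hold normalized counts averaged per group and rounded by the authors, entered here as scores, and no count model was run. The fold change deposited by the authors is a linear ratio to 2 decimals, and the adjusted p-value deposited by the authors has 3 decimals, so that 0 means a value that rounds to 0. These p-values measure the spread between libraries, which may be technical.

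The crn-3 means were scaled by the ratio of the Col-0 sums, 1 was added to each mean and log2 ratios were taken for genes averaging at least 50 (Python 3.11.15, pandas 2.3.3, numpy 2.4.6). The arithmetic of this step was tested on simulated data, with changes larger than 2-fold and counting noise only. That test does not bear on the spread between the real libraries. The pseudocount understates differences of low genes. Symbols, products and positions come from RefSeq TAIR10.1, which matched 28008 of the identifiers and not 487. Text names the mutated genes, the 12 highest and 12 lowest genes, up to 4 members per group, genes called in both tables and at least 1.5-fold apart, and neighbours of named genes. Other genes named were chosen after their values were seen: the remaining group members, those near a threshold and those within 1 Mb of a mutated gene. The comparison, the 43 gene groups (1453 entries in all) and their corrections were chosen with earlier results of these data known, and 42 entries matched no gene. Other pseudocounts, filters, scalings and thresholds were tried. The cle40-2 libraries were not analysed here.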

Additional observations from a re-analysis of the deposited data

How the results depend on the processing

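With group means alone, no replicate could be left out and no depth is known. No paired analysis was possible because the deposited columns are group means that carry no replicate number. The count of genes at least 2-fold higher in crn-3 than in clv2-gabi, 10, became 57 with an average of at least 10, 481 with no filter on low means, 3 with an average of at least 200, and 62 at a threshold of 1.5-fold. The count of genes at least 2-fold lower in crn-3, 7, became 28 with an average of at least 10, 925 with no filter and 45 at a threshold of 1.5-fold. All 10 and all 7 genes were among those counted under the looser filters and the looser threshold, as the construction of these settings requires, and the 481 and 925 hold genes with means of a few counts. Under the other settings tried, the counts lay within 1.5 times of these values, between 8 and 12 higher and between 5 and 9 lower. The median stayed within 0.05 on the log2 scale under every setting that gives one. No named gene past 2-fold changed direction under any setting. Setting the threshold of 1.5-fold aside, TCH3, AT2G04050 and AT5G21940 dropped under 2-fold with a pseudocount of 10, TCH3 also with equal sums of the mutant columns, and AT5G26270, scpl25, AT1G67790 and AT5G56370 reached it under some settings. AT1G24388 has no value as a ratio of the authors' fold changes.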
